A study of Macaca fascicularis with 7 samples.

Results

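The genes described here encode heat shock proteins, J-domain co-chaperones and subunits of the cytosolic chaperonin ring. They are the rows of the deposited gene table whose names start with HSPA, HSPB, HSPD, HSPE or HSPH and a digit, with HSP90, with DNAJA, DNAJB or DNAJC and a digit, or with CCT and a digit from 2 to 8, together with TCP1. The rule found 77 of 28161 rows, and it used no measured value. By family they are 3 HSP90 genes, 13 HSPA and HSPH genes, 8 HSPB genes, 1 HSPD gene (HSPD1; no row was named HSPE), 9 rows of the CCT family, 4 DNAJA, 12 DNAJB and 27 DNAJC genes.

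Poly(A) RNA was sequenced from 7 libraries of wild type cynomolgus monkey (Macaca fascicularis) oocytes. The germinal vesicle (GV) group, immature oocytes arrested before meiosis resumes, and the IVO MII group, oocytes that reached metaphase II in the animal, had 2 libraries each and are labelled control. The IVM MII group, metaphase II oocytes matured in culture and labelled treated, had 3 libraries. The labels used here give neither the animals' age, nor a hormone regime, nor the number of oocytes or animals behind a library, so p-values measure only the spread between these libraries, which may be technical.

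Molecular chaperones bind unfolded or partly folded proteins and help them reach or keep their native shape. HSP70 proteins (HSPA genes) bind short exposed stretches in a cycle driven by ATP, J-domain proteins (DNAJ genes) bring them clients and start ATP hydrolysis, and HSP90 takes over late-folding clients such as kinases and steroid receptors. The chaperonin TRiC, a double ring of TCP1 and its CCT paralogues, folds tubulin and actin, while HSPD1 forms the chaperonin of mitochondria. A fully grown oocyte makes little new RNA after meiosis resumes, so its levels of messenger change mainly by decay and by changes of the poly(A) tail. The library method primes on poly(A), so a longer or shorter tail can move a count while the number of transcripts stays as it was.

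Library totals ran from 22901970 to 29245733 counts, and levels are given as CPM, depth-scaled counts on library sizes adjusted by TMM. A floor of 3 counts corresponds to 0.0907 to 0.161 CPM, and it covers counting error only. Of 14 oocyte markers 13 were in the table and each had counts, with a summed level of 6637 to 17346 CPM per library. Of the 12 cumulus and granulosa markers in the table, AMH, PTX3 and PTGS2 were at 0 counts throughout, and the list summed to 17.8 and 19.4 CPM in GV, 60.2 and 92.3 in IVO MII and 97.2 to 217 in IVM MII. Nearly all of it came from TNFAIP6, HAS2 and FSHR. The 8 stroma, theca and endothelium markers in the table summed to 1081 and 1212 CPM in GV and 60.8 to 127 in MII libraries, nearly all of it from VWF in GV, while COL3A1 and LUM were at 0. The 7 blood and immune markers in the table summed to at most 1.12 CPM, with CD14, LYZ and ITGAM at 0. The part of such cells in the results was not tested. Less RNA per oocyte and fewer oocytes per library cannot be told apart in these data. The alignment files of the GV libraries lie in another folder than those of all MII libraries, so wherever GV enters a comparison, folder and stage cannot be told apart.

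Of the 77 genes, 65 had enough counts to be tested. No count was found in any library for CCT8L2, DNAJB7, DNAJB8, DNAJC5B, HSPB7 and HSPB8. The 6 other genes left untested, HSPA12B, HSPA6, HSPB2, HSPB3, HSPB9 and DNAJC22, had 1 to 8 counts over all libraries together. The heat-inducible gene HSPA6 was among them, with 2 counts in all. No row was named HSPA1A or HSPA1B, so the levels of these HSP70 genes are not known here.

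HSP90AA1, which encodes the inducible cytosolic HSP90, had the highest level per exon length of the 77 genes in each group. It stood at 272 ± 28.9 CPM per kb (SD, n = 2) in GV. In IVO MII it reached 1007 ± 138 (n = 2) and in IVM MII 1130 ± 159 (n = 3). Next in GV came DNAJA1 at 142 ± 8.22 CPM per kb, DNAJB1 at 119 ± 11.8, CCT8 at 116 ± 2.71, HSPB1 at 108 ± 26.2 and CCT2 at 107 ± 2.71, and each of the last 4 stood within the spread of its neighbour in this order. In IVO MII the second place went to HSP90AB1 at 299 ± 55.8 CPM per kb and the third to HSPB1 at 245 ± 71.9, again within their spread. In IVM MII, DNAJC2 at 231 ± 29.1, HSPB11 at 212 ± 71.3 and HSP90AB1 at 205 ± 32 CPM per kb stood closer together than their spread.

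Counts of the 77 genes together took 0.668% and 0.683% of all counts in GV, 0.622% and 0.661% in IVO MII and 0.640% to 0.753% in IVM MII. Their make-up was different. HSP90AA1 alone supplied 15.3% and 17.7% of these counts in GV, but 43.4% and 39.7% in IVO MII and 39.8% to 41.6% in IVM MII. The groups of GV and MII libraries did not overlap in this share. On the TMM scale the sum of the 77 genes was 4821 ± 24.2 CPM in GV against 7086 ± 529 in IVO MII and 8141 ± 980 in IVM MII, so the change of the sum depends on scaling, whereas the share of HSP90AA1 within it does not.

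**Figure D1:**
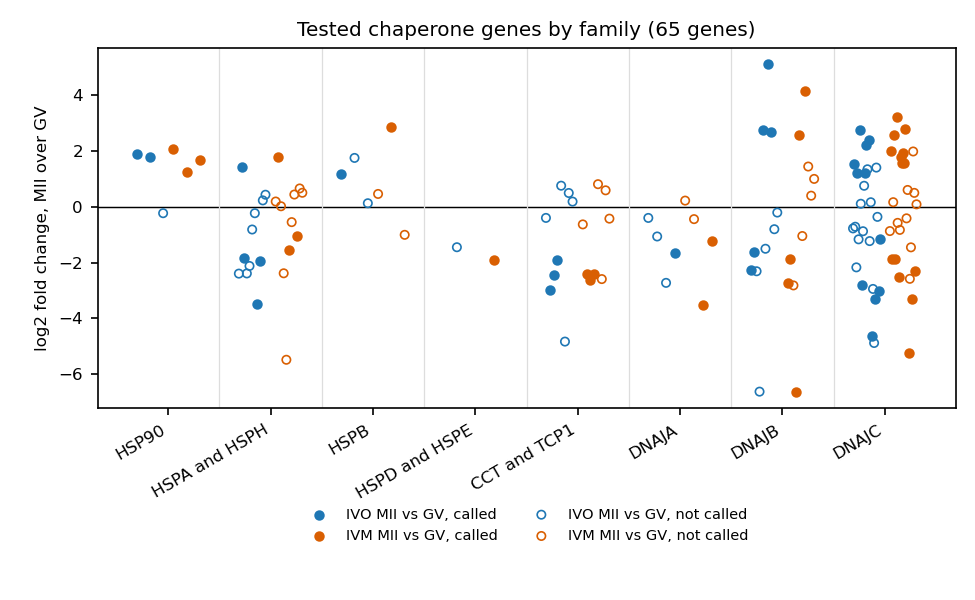
Each point is one of the 65 tested genes, placed by family along the horizontal axis and by its log2 fold change over GV on the vertical axis (edgeR), with IVO MII in blue and IVM MII in orange. Filled points passed an adjusted p of 0.05 and open points did not. The HSP90 genes that passed lie above 0, the CCT genes that passed lie below 0, and the DNAJB and DNAJC families spread to both sides.

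Maturation in the animal was followed by comparing IVO MII with GV. Among the 65 tested genes 27 passed the test, 13 higher and 14 lower in IVO MII. Among all 16374 tested genes 28.1% passed, 14.6% higher and 13.5% lower. The median log2 fold change was -0.77 for the 65 genes and -0.16 for all genes. HSP90 genes were called only upward (2 of 3), and so was the HSPB family (1 of 3 tested), while CCT genes (3 of 8 tested) and DNAJA genes (1 of 4) were called only downward. The HSPA and HSPH genes had 1 higher and 3 lower of 11 tested, DNAJB 3 higher and 2 lower of 10, and DNAJC 6 higher and 5 lower of 25. With RLE scaling 9 of the 65 genes were called higher and 16 lower, where 27.8% of all genes were called, 13.2% higher and 14.6% lower. HSPB1, HSPA13, DNAJC10 and DNAJC13 were then no longer called higher. Without GV replicate 1 the calls fell to 7 (8.6% of all genes) and without GV replicate 2 to 10 (9.8%). Of the 27 genes, 6 kept their call in each fit that leaves out 1 of the 7 libraries (CCT3, DNAJB4, DNAJB14, DNAJC5G, DNAJC8 and DNAJC15), and 16 kept it in the 5 fits with both GV libraries.

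Maturation in culture, IVM MII against GV, gave 32 calls among the 65 genes, 15 higher and 17 lower. Over all tested genes 36.3% passed, 18.5% higher and 17.8% lower. The median log2 fold change was -0.41 for the 65 genes and -0.10 for all genes. All 3 HSP90 genes were called higher. Lower calls were made for 3 of 8 tested CCT genes, 2 of 4 DNAJA genes and HSPD1. The other families were 1 higher and 2 lower of 11 for HSPA and HSPH, 1 higher of 3 for HSPB, 2 higher and 3 lower of 10 for DNAJB, and 8 higher and 6 lower of 25 for DNAJC. The number fell to 13 without GV replicate 1 (12.2% of all genes) and to 16 without GV replicate 2 (14.7%). In this comparison 12 genes kept their call in each of the 7 fits (HSP90AA1, CCT3, CCT4, CCT5, DNAJB1, DNAJB4, DNAJB11, DNAJB14, DNAJC5G, DNAJC13, DNAJC15 and DNAJC27). DNAJC19 and DNAJC24 lost their higher calls with RLE scaling. This comparison and the one with IVO MII share the GV libraries, so they are not independent of each other.

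HSP90AA1 (chromosome 7, bases 167309530 to 167315814 of the deposited table, whose build is not given in the sources used here) was measured at 736 and 856 CPM in GV. In IVO MII it was at 3238 and 2666 CPM, and in IVM MII at 3707, 3431 and 2799. Every MII library lay above both GV libraries. With so few libraries this also held for genes that were not called, such as CCT8. Such separation is given here and below as a description only, and its share among all genes was not counted. The log2 fold change was 1.89 (SE 0.33, with an adjusted p of 0.00465 in edgeR) in IVO MII and 2.06 (SE 0.31, with an adjusted p of 0.00226 in edgeR) in IVM MII. HSP90AB1, the constitutive cytosolic HSP90 gene (chromosome 4, bases 126268989 to 126276391), was at 296 and 254 CPM in GV, 1078 and 827 in IVO MII, and 770, 583 and 606 in IVM MII. It rose by a log2 fold change of 1.79 (SE 0.33, with an adjusted p of 0.0057 in edgeR) in IVO MII and 1.25 (SE 0.30, with an adjusted p of 0.0137 in edgeR) in IVM MII. Per exon length, HSP90AA1 exceeded HSP90AB1 by 2.70-fold and 3.67-fold in the GV libraries, 3.26-fold and 3.50-fold in IVO MII, and 5.02-fold to 6.39-fold in IVM MII.

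HSP90B1 encodes GRP94, the HSP90 of the endoplasmic reticulum (chromosome 11, bases 107611806 to 107629538). Its levels were 36.3 and 40.6 CPM in GV, 21.9 and 43.8 in IVO MII, and 158, 146 and 62.8 in IVM MII. The IVM MII libraries lay above all others, and the IVO MII libraries lay around those of GV. The change was called in IVM MII (log2 fold change 1.67, SE 0.50, with an adjusted p of 0.0301 in edgeR) and had a log2 fold change of -0.23 (SE 0.51, with an adjusted p of 0.77 in edgeR) in IVO MII. Except for HSP90AA1 in IVM MII, calls of the HSP90 genes against GV were lost when certain single libraries were left out, without a change of direction. For IVO MII, HSP90AA1 reached an edgeR adjusted p of 0.0525 without GV replicate 1, and HSP90AB1 0.0504 and 0.0665 without GV replicates 1 and 2. For IVM MII, HSP90AB1 reached 0.0964 and 0.14 without these, and HSP90B1 0.177 and 0.137 without GV replicates 1 and 2 and 0.0876 and 0.077 without IVM MII replicates 1 and 2.

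Co-chaperone genes of HSP90 were counted as a list of 14 tested genes. Among them 1 was called higher and 2 lower in IVO MII, and 2 higher and 5 lower in IVM MII, with medians of -0.54 and -0.77. Over all tested genes 28.1% and 36.3% were called, with medians of -0.16 and -0.10, and the list's 3 and 7 of 14 are read against these. PTGES3, which encodes p23, a stabiliser of the closed HSP90 dimer, was at 388 and 338 CPM in GV, 1600 and 1079 in IVO MII, and 1597, 1375 and 1638 in IVM MII (log2 fold changes 1.88, SE 0.33, and 2.08, SE 0.32; adjusted p of 0.0051 and 0.00238 in edgeR). CDC37, which hands kinases to HSP90, fell from 9.44 ± 0.297 CPM in GV to 1.29 ± 0.524 in IVO MII and 0.297 ± 0.0986 in IVM MII (log2 fold changes -2.86 and -4.98; adjusted p of 0.0223 and 0.00188 in edgeR). SGTA, an adaptor between HSP70 and HSP90 clients, had log2 fold changes of -3.24 in IVO MII and -4.13 in IVM MII, both called, and TTC4 one of -3.59 in IVM MII (edgeR adjusted p = 0.00852). For IVO MII, PTGES3 had an edgeR adjusted p of 0.056 without GV replicate 2, CDC37 had 0.148, 0.154 and 0.0773 without GV replicates 1 and 2 and IVO MII replicate 1, and SGTA was lost without any of the first 4 libraries and IVM MII replicate 3 (0.0504 to 0.168). For IVM MII, SGTA reached 0.0525 without GV replicate 1.

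**Figure D2:**
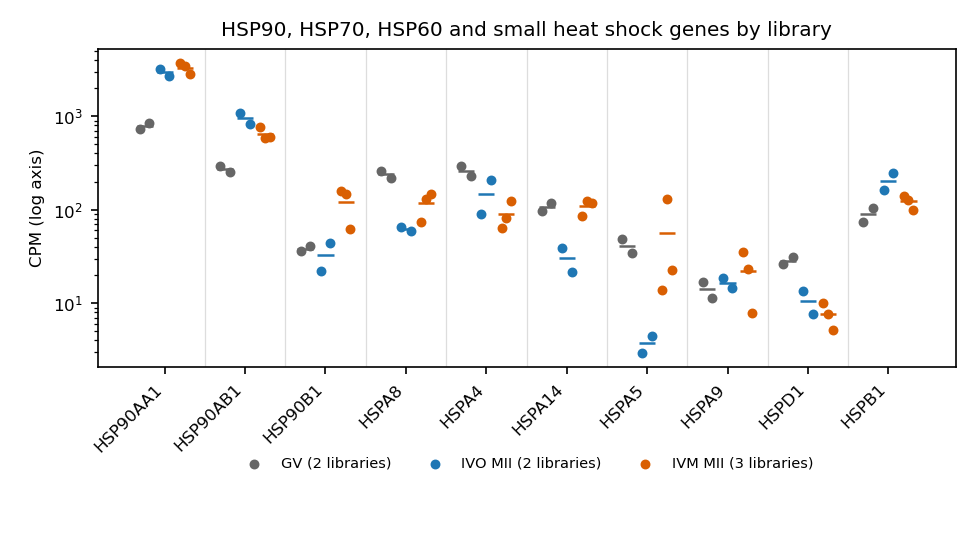
CPM on a log axis for 10 heat shock genes, with 1 point per library and a bar at the mean of each group (grey GV, blue IVO MII, orange IVM MII). HSP90AA1 and HSP90AB1 lie higher in all MII libraries than in GV and HSPA8 lies lower, while HSPA5 spreads from 13.8 to 132 CPM within IVM MII.

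HSPA8, the constitutive cytosolic HSP70 gene (chromosome 14, bases 119039453 to 119044290), went the other way from HSP90AA1. It was at 258 and 221 CPM in GV, 65.7 and 58.6 in IVO MII, and 74.3, 129 and 148 in IVM MII, with no overlap between GV and MII libraries. The log2 fold change was -1.94 (SE 0.40, with an adjusted p of 0.00872 in edgeR) in IVO MII and -1.03 (SE 0.35, with an adjusted p of 0.0459 in edgeR) in IVM MII. The ratio of HSP90AA1 to HSPA8 per exon length within a library was 2.4 and 3.25 in GV, 41.3 and 38.1 in IVO MII, and 41.8, 22.3 and 15.9 in IVM MII. HSPA4, an HSP110-type partner that exchanges the nucleotide of HSP70, was at 291 and 229 CPM in GV, 89.5 and 207 in IVO MII, and 63.0, 81.8 and 125 in IVM MII. It fell in IVM MII (log2 fold change -1.53, SE 0.43, with an adjusted p of 0.0242 in edgeR) and had -0.81 (SE 0.48, with an adjusted p of 0.233 in edgeR) in IVO MII. Its relative HSPH1 was low throughout, at 0.978 to 4.99 CPM. HSPA2, the HSP70 of male germ cells, was at 1.69 and 1.17 CPM in GV, 0.662 and 0 in IVO MII, and 0, 0 and 0.0752 in IVM MII, so GV exceeded IVM MII by a ratio of 49.5 (95% exact counting interval 13.3 to 415) with an edgeR adjusted p of 0.0522. For IVO MII, HSPA8 had an edgeR adjusted p of 0.061 without GV replicate 1. For IVM MII, HSPA8 had 0.252, 0.147, 0.112 and 0.0834 and HSPA4 0.144, 0.0689, 0.0756 and 0.0722 without GV replicates 1 and 2 and IVM MII replicates 1 and 2.

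HSPA14 encodes an atypical HSP70 of the ribosome-associated complex and DNAJC2 its J-domain partner at the ribosome exit tunnel. HSPA14 was at 97.5 and 118 CPM in GV, 39.1 and 21.3 in IVO MII, and 85.0, 124 and 119 in IVM MII. The IVO MII libraries lay below all others, with a log2 fold change of -1.83 (SE 0.41, with an adjusted p of 0.0124 in edgeR) against GV, whereas IVM MII had 0.02 (SE 0.36, with an adjusted p of 0.97 in edgeR). DNAJC2 was at 163 and 207 CPM in GV, 418 and 449 in IVO MII, and 584, 603 and 474 in IVM MII, so all MII libraries were higher than GV. It rose by a log2 fold change of 1.23 (SE 0.31, with an adjusted p of 0.0202 in edgeR) and 1.58 (SE 0.30, with an adjusted p of 0.00461 in edgeR). DNAJC2 shares 288 exonic bases with PMPCB and 68 with PSMC2 on the opposite strand. Without GV replicates 1 and 2, HSPA14 had an edgeR adjusted p of 0.0527 and 0.0799 for IVO MII and DNAJC2 one of 0.205 and 0.101, while for IVM MII DNAJC2 had 0.0806 without GV replicate 1.

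HSPA5 encodes BiP, the HSP70 of the endoplasmic reticulum (chromosome 15, bases 103636243 to 103641504). It was at 48.5 and 34.2 CPM in GV, 2.96 and 4.47 in IVO MII, and 13.8, 132 and 22.8 in IVM MII. It was called lower in IVO MII (log2 fold change -3.47, SE 1.02, with an adjusted p of 0.0343 in edgeR). In IVM MII the log2 fold change was 0.44 (SE 0.84, with an adjusted p of 0.709 in edgeR), and it was -1.17 without IVM MII replicate 2 (edgeR adjusted p = 0.105). The IVO MII call was lost without GV replicate 1 (0.0963), GV replicate 2 (0.0632), IVO MII replicate 1 (0.155) and IVO MII replicate 2 (0.0987). DNAJB11, whose product is a BiP partner (chromosome 2, bases 91325442 to 91343377), was much tighter, at 87.9 and 91.9 CPM in GV, 28.5 and 30.5 in IVO MII, and 23.6, 23.2 and 26.3 in IVM MII. It fell by 1.61 (SE 0.34, with an adjusted p of 0.01 in edgeR) and 1.88 (SE 0.30, with an adjusted p of 0.00264 in edgeR) on the log2 scale. DNAJC3, a BiP partner that also inhibits the kinase PERK, was at 98.4 and 74.6 CPM in GV, 94.9 and 99.1 in IVO MII, and 122, 137 and 135 in IVM MII, with values of 0.17 (SE 0.32) and 0.61 (SE 0.29) on the log2 scale, which did not pass. HSPA13, a microsomal HSP70 gene, was at 9.65 and 12.8 CPM in GV, 37.3 and 22.9 in IVO MII, and 40.9, 49.4 and 26.5 in IVM MII, and was called higher in both (log2 fold changes 1.42 and 1.80; adjusted p of 0.0495 and 0.0146 in edgeR). HSPA13 lost its IVO MII call without GV replicate 1 (0.298), GV replicate 2 (0.168), IVO MII replicate 1 (0.198), IVM MII replicate 1 (0.0724) and IVM MII replicate 2 (0.0636), and its IVM MII call without GV replicates 1 and 2 (0.149 and 0.0807). DNAJB11 had 0.0784 and 0.0857 in IVO MII without GV replicates 1 and 2.

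In mitochondria, HSPD1 (HSP60; chromosome 12, bases 86675078 to 86690955) was at 26.0 and 31.2 CPM in GV, 13.4 and 7.60 in IVO MII, and 10.1, 7.65 and 5.19 in IVM MII. All MII libraries lay below GV. It fell in IVM MII (log2 fold change -1.91, SE 0.46, with an adjusted p of 0.013 in edgeR), a call lost without GV replicates 1 and 2 (0.0654 and 0.0999), and had -1.45 (SE 0.52, with an adjusted p of 0.0657 in edgeR) in IVO MII. HSPA9, which encodes mortalin, the HSP70 of mitochondria, was not called, at 16.7 and 11.5 CPM in GV, 18.6 and 14.5 in IVO MII, and 35.5, 23.4 and 7.90 in IVM MII (log2 fold changes 0.23, SE 0.65, and 0.66, SE 0.60). DNAJC15, a J-domain protein of the mitochondrial inner membrane (chromosome 17, bases 22202266 to 22297252), was at 12.4 and 15.0 CPM in GV, 120 and 63.5 in IVO MII, and 153, 130 and 102 in IVM MII. The log2 fold change was 2.74 (SE 0.43, with an adjusted p of 0.00342 in edgeR) in IVO MII and 3.23 (SE 0.42, with an adjusted p of 0.00163 in edgeR) in IVM MII. HSPD1 shares 305 exonic bases with a locus-named row on the opposite strand, and the strand setting of the counting is not given in the sources used here.

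Small heat shock proteins hold unfolding proteins without using ATP. HSPB1 (HSP27) was at 74.0 and 105 CPM in GV, 161 and 245 in IVO MII, and 141, 128 and 100.3 in IVM MII. It was called higher in IVO MII (log2 fold change 1.18, SE 0.37, with an adjusted p of 0.044 in edgeR) and had 0.46 (SE 0.34, with an adjusted p of 0.313 in edgeR) in IVM MII. The IVO MII call was lost without GV replicate 1 (0.313), GV replicate 2 (0.132), IVO MII replicate 2 (0.149), IVM MII replicate 1 (0.0638) and IVM MII replicate 2 (0.0667). HSPB11, which carries the family name but encodes IFT25, a protein of ciliary transport, was at 21.7 and 40.1 CPM in GV, 170 and 38.3 in IVO MII, and 308, 204 and 162 in IVM MII. It rose in IVM MII (log2 fold change 2.86, SE 0.67, with an adjusted p of 0.0119 in edgeR; 0.0917 without GV replicate 1), whereas in IVO MII, with libraries on both sides of the upper GV value, it had 1.75 (SE 0.67, with an adjusted p of 0.0811 in edgeR). HSPB6 had 6.98 to 23.6 CPM and was not called.

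The chaperonin ring needs each of its 8 subunits, yet their messengers were not called alike against GV. Differences between subunits were not tested. CCT3, CCT4 and CCT5 fell in both kinds of MII oocyte, and in the main fit TCP1, CCT2, CCT6A and CCT8 were not called in either. CCT3 (chromosome 1, bases 95380077 to 95408498) was at 99.0 and 98.6 CPM in GV, 13.2 and 12 in IVO MII, and 20.1, 14.8 and 21.5 in IVM MII. Its log2 fold change was -2.97 (SE 0.39, with an adjusted p of 0.00226 in edgeR) in IVO MII and -2.39 (SE 0.33, with an adjusted p of 0.00178 in edgeR) in IVM MII. CCT4 (chromosome 13, bases 48174800 to 48195670) was at 59.9 and 43.0 CPM in GV, 9.78 and 8.95 in IVO MII, and 7.51, 8.87 and 8.80 in IVM MII (log2 fold changes -2.46, SE 0.42, and -2.61, SE 0.36; adjusted p of 0.00436 and 0.0018 in edgeR). CCT5 (chromosome 6, bases 10354995 to 10370388) was at 78.6 and 67.9 CPM in GV, 14.8 and 24.1 in IVO MII, and 9.28, 12.4 and 20.2 in IVM MII (log2 fold changes -1.91, SE 0.49, and -2.39, SE 0.43; adjusted p of 0.0206 and 0.00395 in edgeR). For these 3 genes the GV and MII libraries did not overlap. The same was true of CCT2 and CCT8, which were not called.

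Among the other subunits, CCT8 was at 290 and 281 CPM in GV, 341 and 463 in IVO MII, and 511, 451 and 328 in IVM MII (log2 fold changes 0.50, SE 0.34, and 0.59, SE 0.31). On the log2 scale the values were for CCT6A 0.76 (SE 0.40) and 0.81 (SE 0.37), CCT2 -0.40 (SE 0.39) and -0.63 (SE 0.35), and TCP1 0.19 (SE 0.36) and -0.42 (SE 0.33), none of them called in the main fit. With a block for the replicate number, and also without IVM MII replicate 3, CCT6A was called higher and CCT2 lower in IVM MII. Per exon length, the highest of these 7 subunits in a library, CCT8 in each, exceeded the lowest by 5.22-fold and 6.95-fold in GV, where the lowest was CCT6A. In the MII libraries the lowest was CCT4, and the ratio was 28.5 and 42.2 in IVO MII and 55.4, 41.4 and 30.4 in IVM MII. CCT7, the remaining subunit, is not part of these ratios. In GV it already stood at 0.363 ± 0.0877 CPM per kb, against 116 ± 2.71 for CCT8. It had only 31 and 21 counts in GV, 1 and 0 in IVO MII, and 3, 0 and 6 in IVM MII. GV exceeded IVO MII by a ratio of 36.6 (95% exact counting interval 6.29 to 1474) without a call. The CCT4 call in IVO MII reached an edgeR adjusted p of 0.0545 without GV replicate 1, and that of CCT5 0.115, 0.0792 and 0.0973 without GV replicate 1, GV replicate 2 and IVO MII replicate 1. TCP1 shares 392 exonic bases with ACAT2 on the opposite strand. CCT and HSP genes have many processed pseudogenes, and the treatment of reads with several matches is not given in the sources used here.

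**Figure D3:**
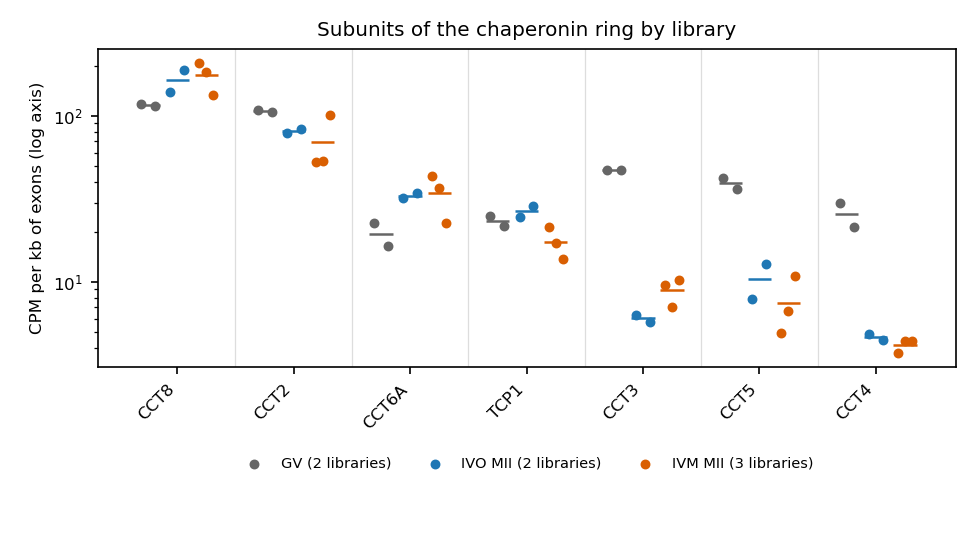
Level per exon length (CPM per kb, log axis) of 7 chaperonin subunits, with 1 point per library and a bar at each group mean (grey GV, blue IVO MII, orange IVM MII). CCT3, CCT5 and CCT4 lie lower in all MII libraries than in GV, and CCT8 lies at 113.8 CPM per kb or more in each library.

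Of 9 tested genes for prefoldin, which hands actin and tubulin to the ring, and for other partners of it, 1 was called higher and 3 lower in IVO MII, and 2 higher and 3 lower in IVM MII, with medians of -0.31 and -0.45 (all tested genes 28.1% and 36.3% called, medians -0.16 and -0.10). PFDN1 fell from 111 ± 5.45 CPM in GV to 26.0 ± 4.03 in IVO MII and 42.9 ± 3.46 in IVM MII (log2 fold changes -2.09 and -1.37; adjusted p of 0.00406 and 0.00887 in edgeR). PFDN4 rose from 10.2 ± 3.84 CPM to 60.6 ± 53.1 and 134 ± 48.3 (log2 fold changes 2.56 and 3.71; adjusted p of 0.0267 and 0.005 in edgeR). PFDN5 was lower in both (log2 fold changes -1.75 and -1.59), and PDCL, a phosducin-like partner of the ring, rose in IVM MII (2.09). TXNDC9, another phosducin-like partner of the ring, fell from 934 ± 178 CPM to 291 ± 150 and 360 ± 122 (log2 fold changes -1.68 and -1.38). Of the prefoldin subunits, PFDN1 and PFDN5 were thus called lower and PFDN4 higher. PFDN2 (log2 fold changes 0.18 and -0.12), VBP1 (-0.31 and -0.20) and PFDN6 (0.17 and -0.58) were called in neither kind of MII oocyte. Differences between these subunits were not tested. PFDN1 lost its IVM MII call without GV replicates 1 and 2 (0.0959 and 0.0698), and PFDN4 its IVO MII call without GV replicate 1, GV replicate 2 and IVO MII replicate 1 (0.157, 0.0763 and 0.186). TXNDC9 lost that in IVO MII without both of these GV replicates and IVO MII replicate 2 (0.0736, 0.142 and 0.108), and that in IVM MII without either GV replicate and without IVM MII replicates 1 and 3 (0.0561 to 0.174). PFDN5 in IVO MII was lost without any library but IVM MII replicate 3 (0.0524 to 0.287), and PFDN5 and PDCL in IVM MII without GV replicates 1 and 2 and IVM MII replicates 1 and 2 (0.0661 to 0.272).

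Among the called genes, J-domain genes had the largest log2 fold changes in both directions. DNAJB4, whose product acts with HSP70 in the cytosol (chromosome 1, bases 149205050 to 149243705), was at 1.24 and 3.73 CPM in GV, 113 and 58.5 in IVO MII, and 28.6, 26.8 and 76.7 in IVM MII. The log2 fold change was 5.11 (SE 0.81, with an adjusted p of 0.00358 in edgeR) in IVO MII and 4.15 (SE 0.76, with an adjusted p of 0.00418 in edgeR) in IVM MII. Its close relative DNAJB1, the classical stress-inducible partner of HSP70 (chromosome 19, bases 14905685 to 14922732), moved the opposite way. DNAJB1 was at 355 and 308 CPM in GV, 34.8 and 103 in IVO MII, and 41.8, 50.0 and 58.7 in IVM MII (log2 fold changes -2.27, SE 0.51, and -2.73, SE 0.45; adjusted p of 0.0122 and 0.00285 in edgeR). Each MII library was above GV for DNAJB4 and below GV for DNAJB1. For DNAJB4 such a separation was a condition for naming it here. DNAJB5 was at 4.81 and 3.38 CPM in GV, 8.66 and 43.6 in IVO MII, and 8.48, 7.02 and 18 in IVM MII. Its IVO MII call (log2 fold change 2.67, SE 0.82, with an adjusted p of 0.0399 in edgeR) was lost without GV replicate 1 (0.14), GV replicate 2 (0.198), IVO MII replicate 2 (0.285), IVM MII replicate 1 (0.0547) and IVM MII replicate 2 (0.0524). In IVM MII it had 1.45 (SE 0.74, with an adjusted p of 0.155 in edgeR), and DNAJB1 in IVO MII had an edgeR adjusted p of 0.0606 without GV replicate 1.

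DNAJB14, which encodes a J-domain protein of the endoplasmic reticulum membrane (chromosome 5, bases 99165700 to 99216724), was at 6.68 and 9.96 CPM in GV, 64.5 and 47.5 in IVO MII, and 42.5, 59.9 and 48.2 in IVM MII (log2 fold changes 2.75, SE 0.42, and 2.59, SE 0.40; adjusted p of 0.00322 and 0.00242 in edgeR). DNAJC27, a small GTPase with a J domain, was at 6.78 and 6.29 CPM in GV, 32.4 and 37.2 in IVO MII, and 46.5, 34.1 and 53.8 in IVM MII (log2 fold changes 2.41, SE 0.41, and 2.78, SE 0.39; adjusted p of 0.00427 and 0.0019 in edgeR). In both genes MII libraries lay above GV without overlap, which was a condition for naming them here. The IVO MII call of DNAJC27 was lost without GV replicate 2, at a log2 fold change of 2.34. DNAJC5G, of the cysteine string protein group, was at 46.8 and 40.4 CPM in GV, 4.69 and 4.09 in IVO MII, and 2.04, 7.94 and 3.16 in IVM MII (log2 fold change -3.31 in both, SE 0.68 and 0.58; adjusted p of 0.00879 and 0.00366 in edgeR). DNAJC8, which is linked to pre-mRNA splicing, was at 70.9 and 92.8 CPM in GV, 12.2 and 7.79 in IVO MII, and 22.7, 19.7 and 8.16 in IVM MII (log2 fold changes -3.03, SE 0.57, and -2.28, SE 0.48; adjusted p of 0.0062 and 0.00742 in edgeR). For DNAJC8 in IVM MII the adjusted p was 0.0547 without GV replicate 2. DNAJA1, the main cytosolic partner of HSPA8, had 116 to 272 CPM over all libraries and no call against GV (log2 fold changes -0.40, SE 0.35, and 0.22, SE 0.32). DNAJB13, a gene of sperm flagella, had 31 counts in GV and 0 in all MII libraries, at least 3.55-fold lower in IVO MII and 3.57-fold lower in IVM MII against a floor of 3 counts per library. Only the latter was called (edgeR adjusted p = 0.0484), and it was lost without GV replicate 2 (0.256) and without IVM MII replicate 1, 2 or 3 (0.0747, 0.0713 and 0.0568), while DNAJB13 was not tested without GV replicate 1.

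The remaining called J-domain genes were each found in one direction. DNAJC10 and DNAJC21 were called higher in both kinds of MII oocyte and DNAJC19 and DNAJC24 in IVM MII, with log2 fold changes of 1.55 to 2.22 in IVO MII and 1.59 to 2.01 in IVM MII. DNAJA4, DNAJC17 and DNAJC30 were called lower in both, and DNAJA3, DNAJC11 and DNAJC14 in IVM MII, with log2 fold changes of -4.61 to -1.66 in IVO MII and -5.23 to -1.23 in IVM MII. DNAJC10 encodes a disulphide reductase of the endoplasmic reticulum, and DNAJC19 and DNAJA3 encode J-domain proteins of mitochondria. Without GV replicate 1 each of these calls was lost. The log2 fold changes were then 1.44 to 1.92 and -4.34 to -1.84 in IVO MII, and 1.45 to 1.90 and -4.96 to -1.41 in IVM MII. Without GV replicate 2 each was lost too, except those of DNAJA3 and DNAJC30 in IVM MII. Several were also lost without an MII library. DNAJC10 in IVO MII kept its call in 1 of the 7 fits without 1 library, and DNAJC19 in IVM MII in 2.

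**Figure D4:**
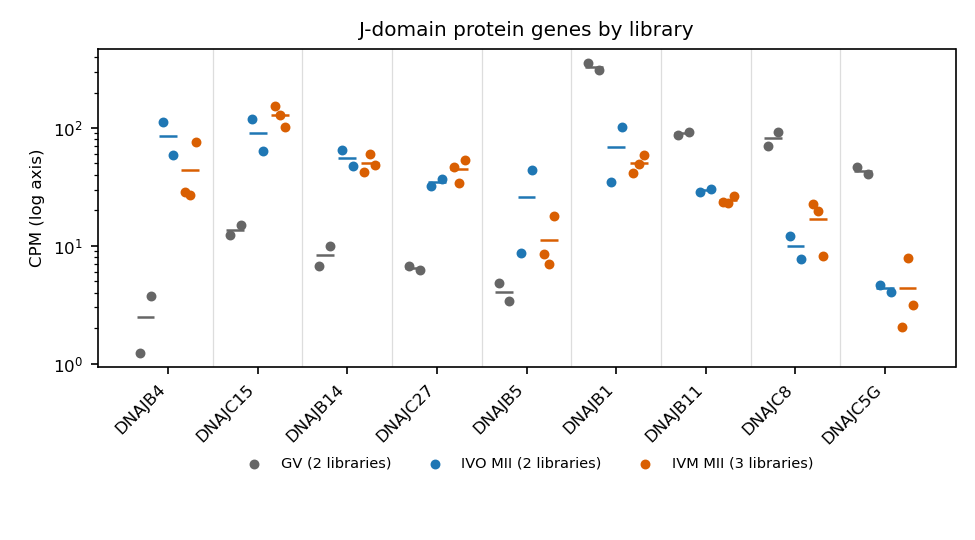
CPM on a log axis for 9 J-domain genes, with 1 point per library and a bar at each group mean (grey GV, blue IVO MII, orange IVM MII). The first 5 genes have higher means in MII than in GV and the last 4 have lower ones, and DNAJB5 in IVO MII spans 8.66 to 43.6 CPM.

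Regulators and partners of HSP70 were counted in the same way, beside 28.1% of all tested genes called in IVO MII and 36.3% in IVM MII and medians of -0.16 and -0.10. Of 5 tested genes for heat shock factors and their binding partners, 1 was called higher and 2 lower in IVO MII, and 1 higher and 3 lower in IVM MII. HSF1, the master factor of the heat shock response, was low, at 3.27 and 1.11 CPM in GV and 0.051 and 0.424 in IVO MII, and it had 0 counts in all 3 IVM MII libraries. This is at least 16.4-fold lower than GV against the floor, or at least 8.29-fold without GV replicate 1 (edgeR adjusted p = 0.0136, and 0.151 without GV replicate 1). HSF2 was at 17.8 and 20.9 CPM in GV, 48.9 and 23.8 in IVO MII, and 60.8, 80.8 and 67.7 in IVM MII, which rose by 1.85 on the log2 scale (SE 0.42, with an adjusted p of 0.00982 in edgeR, with 0.108 and 0.072 without GV replicates 1 and 2). HSBP1, which encodes a binding protein of HSF1, fell by 1.69 in IVO MII and 1.44 in IVM MII on the log2 scale (edgeR adjusted p = 0.00665 and 0.00565, and 0.0673 and 0.0743 without GV replicate 2). HSF4 was lower in both (log2 fold changes -5.95 and -5.48), the first lost without GV replicate 1 (0.0675) and IVO MII replicate 1 (0.0503), and HSF2BP, whose product acts in meiotic recombination, was higher in IVO MII (1.40), lost without GV replicate 1 (0.101), GV replicate 2 (0.211) and IVO MII replicate 2 (0.059). Among 12 tested genes for nucleotide exchange factors, HIP and CHIP, BAG3 was the 1 called higher in each kind of MII oocyte, and 2 were lower in each, so the 3 of 12 called were no larger a share than that of all genes. BAG3, which links HSP70 to autophagy, was at 3.72 and 3.23 CPM in GV, 24.3 and 15.8 in IVO MII, and 24.1, 22.9 and 29.9 in IVM MII (log2 fold changes 2.53 and 2.88; adjusted p of 0.00525 and 0.00234 in edgeR). In IVO MII it had 0.0543 and 0.0631 without GV replicates 1 and 2. The lower genes were BAG1, with 3 counts in IVO MII against 287 in GV, and SIL1 (log2 fold change -2.05) in IVO MII, and HSPBP1 (-3.00) and STUB1 in IVM MII. STUB1, which encodes the ubiquitin ligase CHIP, had 0 counts in each IVM MII library, which is at least 6.22-fold below GV. BAG1 was lost without GV replicate 1, GV replicate 2 and IVO MII replicate 2 (0.0516 to 0.0673), SIL1 without any of the 4 GV and IVO MII libraries (0.0644 to 0.13), HSPBP1 without GV replicate 1 (0.0523) and STUB1 without GV replicates 1 and 2 (0.202 and 0.141). The medians over these lists were -1.69 and -1.44 for the factors and -0.55 and -0.58 for the HSP70 partners.

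Of 5 tested chaperones of the same families that carry other symbols, 0 were called higher and 2 lower in IVO MII and 1 higher and 1 lower in IVM MII, with medians of -1.13 and -1.07, beside the same shares and medians of all genes (28.1% and 36.3%, -0.16 and -0.10). TRAP1, the HSP90 of mitochondria, was at 15.3 ± 3.50 CPM in GV against 2.27 ± 2.13 in IVO MII and 2.13 ± 1.17 in IVM MII (log2 fold changes -2.75 and -2.84; adjusted p of 0.0448 and 0.0192 in edgeR). HSCB, the J-domain protein of iron-sulphur cluster assembly, was lower in IVO MII (-2.74), and SEC63, the J-domain protein of the translocon, higher in IVM MII (2.4). The HSCB call was lost without any library but IVM MII replicate 3 (0.0592 to 0.19), and that of SEC63 without GV replicate 1, GV replicate 2 and IVM MII replicate 1 (0.117, 0.0812 and 0.0528). The TRAP1 calls were lost without either GV replicate (0.0605 to 0.196), without IVO MII replicate 1 for IVO MII (0.132), and without IVM MII replicate 1 or 2 for both (0.0548 to 0.0612).

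Exon length differed between the genes that went up and down. In IVO MII the median exonic length was 3433 bases for the 13 chaperone genes called higher and 1942.5 for the 14 called lower, with ranges of 830 to 8033 and 1266 to 5340. Over all genes it was 4302 bases for those called higher and 1974.5 for those called lower. In IVM MII the chaperone medians were 3433 and 2409 bases, and those of all genes 4089 and 2136.5. The chaperone genes thus shared a difference seen across the whole table, and no test was made of it.

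Oocytes matured in culture were compared with those matured in the animal through IVM MII against IVO MII. None of the 65 chaperone genes passed the edgeR test, where 1.47% of all tested genes did, 0.892% higher and 0.58% lower in IVM MII. At an unadjusted edgeR p under 0.05 there were 10, of which 9 were higher and 1 lower in IVM MII. Over all genes 21.1% had such a p, 12.3% in the higher and 8.84% in the lower direction. The median log2 fold change was 0.24 for the 65 genes and 0 for all genes. By DESeq2 6 of 64 chaperone genes passed, all higher in IVM MII (12.2% of all genes passed), by limma voom 1 (3.04%), by the newer edgeR fit 2 (4.71%) and without a filter on low counts 3 (3.36%). HSP90AA1 had a log2 fold change of 0.17 (SE 0.29), HSP90AB1 -0.54 (SE 0.29), HSPA8 0.91 (SE 0.36) and HSPB1 -0.72 (SE 0.33). The IVO MII libraries of HSP90AB1 and HSPB1 were above, and those of HSPA8 below, all 3 IVM MII libraries.

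The 6 genes with the smallest p were all higher in IVM MII. HSPA14 led, with 39.1 and 21.3 CPM in IVO MII against 85.0, 124 and 119 in IVM MII (log2 fold change 1.85, SE 0.39, with an adjusted p of 0.0553 in edgeR). The endoplasmic reticulum genes HSPA5 (3.91, SE 1.01) and HSP90B1 (1.90, SE 0.50) followed, at edgeR adjusted p = 0.0836 and 0.0897. DNAJC13, whose product works on early endosomes, was at 114 and 88.8 CPM in IVO MII and 311, 298 and 177 in IVM MII, having been at 36.1 and 51.1 in GV (1.37, SE 0.37, with an adjusted p of 0.0922 in edgeR). Against GV it was called higher in IVM MII (2.59, SE 0.39, with an adjusted p of 0.00227 in edgeR) and in IVO MII (1.22, SE 0.39, with an adjusted p of 0.0475 in edgeR), the latter lost in 6 of 7 fits without 1 library (all but that without IVM MII replicate 3; 0.0569 to 0.309). DNAJC9, a histone chaperone with a J domain, was at 320 and 312 CPM in GV, 123 and 163 in IVO MII, and 406, 362 and 242 in IVM MII (1.24, SE 0.34, with an adjusted p of 0.094 in edgeR). Against GV it was lower in IVO MII (-1.15, SE 0.36, with an adjusted p of 0.0425 in edgeR, lost in the same 6 fits at 0.0512 to 0.181) and had 0.09 (SE 0.32) in IVM MII. DNAJC9 shares 791 exonic bases with MRPS16 on the same strand, so its counts are uncertain. DNAJB6, an inhibitor of protein aggregation, was at 77.2 and 37.5 CPM in IVO MII and 120, 141 and 135 in IVM MII (1.2, SE 0.37, with an adjusted p of 0.122 in edgeR). For each of the 6 genes the IVM and IVO MII libraries did not overlap. The genes were picked by p from these same libraries, so this separation is no further support.

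With all 7 libraries edgeR called none of the chaperone genes between IVM and IVO MII, and more genes were called when IVM MII replicate 3 was left out. DESeq2 called 6 chaperone genes with all 7 libraries, where 12.2% of all genes passed. Without replicate 3 edgeR called the same 6, all higher in IVM MII, where 7.89% of all genes were called. They were HSPA14, HSPA5, HSP90B1, DNAJC12, DNAJC13 and DNAJC9. Replicate 3 was the lowest of its group for HSP90B1, DNAJC12, DNAJC13 and DNAJC9. DNAJC12 was at 12.3, 9.72 and 1.54 CPM in IVM MII against 1.32 and 1.77 in IVO MII, with overlap. The values that follow are from edgeR without replicate 3. HSP90B1 then had a log2 fold change of 2.20 (edgeR adjusted p = 0.0267), HSPA5 4.29 (0.0482), HSPA14 1.78 (0.043), DNAJC13 1.57 (0.0301) and DNAJC9 1.41 (0.0313). Without IVO MII replicate 1 HSPA14 alone was called (0.0495, where 2.09% of all genes were), and without any of the 5 other libraries none was. In those 5 fits the share called among all genes was 0.556% and 0.369% without GV replicates 1 and 2, 0.126% without IVO MII replicate 2, and 0% without IVM MII replicate 1 or 2. The size of the HSPA5 difference rested on IVM MII replicate 2, the library at 132 CPM, and was 2.29 (edgeR adjusted p = 0.134) without it. DNAJB6 ranged from 0.69 without IVO MII replicate 2 to 1.81 without IVO MII replicate 1. The cumulus and granulosa markers summed to more in IVM MII than in IVO MII, through TNFAIP6 and FSHR. TNFAIP6 was at 46.1 and 18.2 CPM in IVO MII against 149, 115 and 55.6 in IVM MII. FSHR was at 6.01 and 3.32 CPM against 53.5, 30.3 and 21.9. HAS2 went the other way, at 39.4 and 38.6 CPM against 13.5, 9.72 and 19.5. The part of these markers in the differences of the chaperone genes was not tested.

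**Figure D5:**
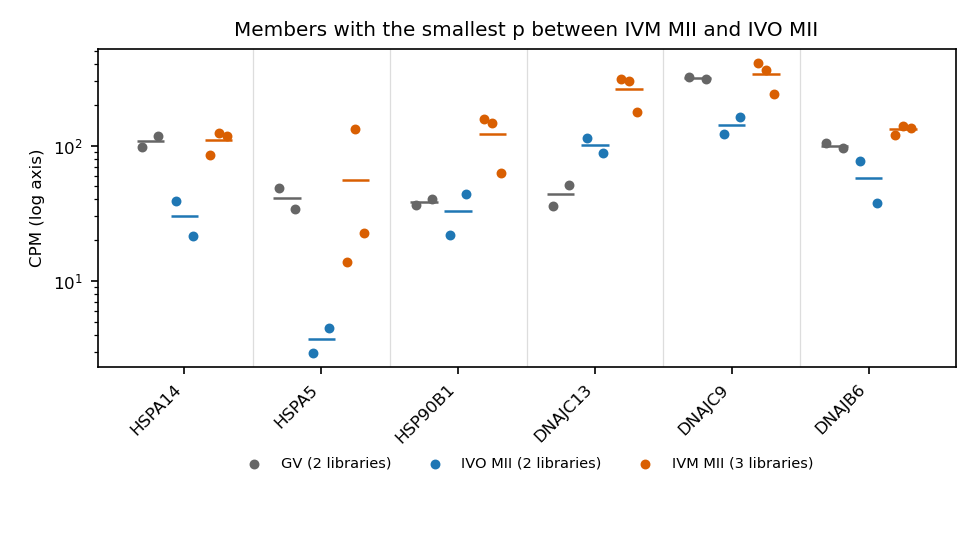
CPM on a log axis for the 6 chaperone genes with the smallest p between IVM MII and IVO MII, with 1 point per library and a bar at each group mean (grey GV, blue IVO MII, orange IVM MII). In each gene all IVM MII points lie above both IVO MII points, and none of the 6 passed the adjusted test.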

How the data were processed

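The authors deposited raw counts per gene with no normalization, and the submitters' processing notes name featureCounts 2.0.1, Bowtie2 2.4.5, Trim Galore 0.6.7, SAMtools 1.15.1 and DESeq2. Not given in the sources used here: genome build, strand setting, and treatment of multiply matching reads. Exonic length is the length column, deposited by the authors as another value beside the counts. Bowtie2 does not split reads over introns, so junction reads can be lost or land on processed pseudogenes. Of the table, 10 broken lines of 3 genes were left out.

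Counts of all 7 libraries entered one edgeR 4.0.16 fit (glmQLFit and glmQLFTest, TMM, filterByExpr; R 4.3.3), so that all groups share one estimate of the spread. Benjamini-Hochberg adjustment ran over 16374 genes, and a gene was called at an adjusted p under 0.05, two-sided. The SE is the log2 fold change divided by the square root of F. Alternatives were RLE and upper quartile scaling, no filter, only the groups compared, a replicate block, the newer edgeR fit, limma 3.58.1 voom, DESeq2 1.42.0 and leaving out each library.

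The members, lists and naming rule were chosen with earlier results of these data known. Named genes were fixed anchors of each family, the 5 largest changes in each direction per comparison among called genes whose libraries do not overlap and whose higher group reached 20 CPM, and the 6 smallest p between IVM and IVO MII. DNAJC2, DNAJB11, HSPA13, HSPB6, DNAJC12, DNAJB13 and the remaining called J-domain genes were named after their values were seen. Of each co-chaperone list up to 4 called genes per comparison were named, smallest adjusted p first. From the list of chaperones under other symbols, 1 gene is not reported here.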

Additional observations from a re-analysis of the deposited data

How the results depend on the processing

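Under the alternatives of scaling, filter and test, 0 of the 27 and 32 genes called against GV changed direction. With RLE scaling the median over all genes went from -0.16 to -0.26 (log2) for IVO MII and from -0.10 to -0.24 for IVM MII against GV, and upper quartile scaling moved it to -0.21 for IVM MII against GV and to -0.11 for IVM against IVO MII. When 1 library was left out, calls among the 65 chaperone genes ranged from 7 to 31 for IVO MII against GV, 13 to 34 for IVM MII against GV and 0 to 6 for IVM against IVO MII, and those of all genes from 1484 to 5517, 2110 to 6716 and 0 to 1277. Where this leaves 1 library in a group, it is assumed to vary like the others.

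Between IVM and IVO MII the chaperone genes called were 2 with the newer edgeR fit, 3 without a filter, 1 with limma voom and 6 with DESeq2. For all genes, 241 in the full data, they were 772, 731, 497 and 2029 in that order, and 54 with only the groups compared. The replicate block called 7 chaperone genes and 1238 of all genes there. Same-numbered libraries share only a number, taken from their titles (the alignment file of IVO MII replicate 2 is numbered 3): their deviations correlated at -0.23 to 0.35. With the IVO MII numbers crossed, a pairing added after seeing the data, 6 chaperone genes and 1362 of all genes were called. The block moved no count of calls against GV by over 1.5 times.

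Signs were followed for the called genes among the 65 and for the other log2 fold changes of these genes that the text prints. Among these, only values that did not pass the test changed sign. In IVO MII against GV these were DNAJC3 (-0.0368 to 0.36 when 1 library was left out, below 0 without GV replicate 2), HSPA9 (-0.029 to 0.507, below 0 without GV replicate 2) and HSP90B1 (-0.821 to 0.175, above 0 without IVO MII replicate 1). In IVM MII against GV, DNAJC9 had -0.0355 with RLE scaling, -0.0221 with upper quartile scaling, -0.0386 with DESeq2 and -0.0837 to 0.247 when 1 library was left out. HSPA14 had -0.117 with RLE, -0.0868 with upper quartile scaling, -0.0059 without a filter, -0.0423 with the replicate block, -0.119 with DESeq2 and -0.124 to 0.158 when 1 library was left out. HSPA5 had -0.211 with limma voom and -1.17 to 0.883 when 1 library was left out, below 0 without IVM MII replicate 2. Between IVM and IVO MII, HSP90AA1 had -0.0531 to 0.312, below 0 without IVO MII replicate 2. The cause was not tested.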

Other observations

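RefSeq's gene table for the species (assembly T2T-MFA8v1.1), used for names only, lists 3 symbols that fit the naming rule but head no row of the deposited table, HSPE1, CCT6B and DNAJC25. DNAJC25 matched a row named by its locus identifier, with 34 and 37 counts in GV, 8 and 34 in IVO MII, and 8, 21 and 12 in IVM MII. The others are not analysed here.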
